A study of Glycine max with 30 samples.

Results

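The transgene effect was pooled over both soybean families of cultivar Mustang and measured in mature leaves. For this, 12 transgenic libraries were set against 12 libraries of non-transgenic siblings. These 24 libraries, of 30 in the series, were chosen by their titles, and the effect was taken from 1 additive model with the family as a block. One family carried an RNAi construct against NRP(D/E)2 and the other a construct against NRPE1, with 6 transgenic (T) and 6 non-transgenic (NT) plants in each. All 24 plants were Glycine max cultivar Mustang, and poly(A) RNA was sequenced from their leaves. The remaining 6 libraries came from another family, of cultivar Jack, with 3 plants carrying a construct against NRPD1 and 3 non-transgenic siblings. They had no part in the main fit of the pooled effect and entered only 1 alternative fit, of all 30 libraries. The promoter of each construct, the number of independent transformation events and the age of the plants are not stated in the labels.

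RNA polymerases IV and V are plant-specific enzymes of RNA-directed DNA methylation. Polymerase IV starts the production of small interfering RNAs, and polymerase V makes scaffold transcripts at the target loci, where Argonaute proteins loaded with those small RNAs bring in a DNA methyltransferase. The largest subunit is called NRPE1 in polymerase V and NRPD1 in polymerase IV, while both enzymes share NRP(D/E)2 as their second-largest subunit. In plants the pathway is known for keeping transposons and some genes near them silent.

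Genes could be given by identifier only. None of the 55589 identifiers in the count tables matched the RefSeq gene table used for names (matched: 0), so the knockdown of the targeted subunits, the leaf identity of the tissue and lists of gene families were not analysed here. Groups of genes are therefore described by their abundance, the size of their change, their silence in one arm and their place on the chromosome, and 2 identifiers are named in each direction. The chromosome was read from the identifier, and positions are given as the identifier's place in their numerical order (rank), not as coordinates.

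The 24 libraries held between 10049997 and 21763621 counts. After the family means were removed, the first principal component of log2 CPM (a gene's counts relative to its library's total, scaled by TMM, the trimmed mean of M values) held 36% of the variance. On it the 12 T libraries lay between -11 and 118, above 11 of the 12 NT libraries, which lay between -143 and -21.5. The exception was the library labelled NRPE1-RNAi-NT replicate 4, at 83, inside the range of the T libraries. The labels named no extraction, lane or sowing batch, so within-batch values could not be given. Nothing in the labels says whether siblings were grown or extracted separately, so p-values measure the spread between these libraries.

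Pooled over both constructs, 6395 of 33515 tested genes changed in Mustang leaves (19.1%), 3235 of them higher (9.65%) and 3160 lower (9.43%) than in non-transgenic siblings. Genes that rose changed more: their median log2 fold change was 0.957 with an interquartile range from 0.54 to 1.60, against -0.524 with a range from -0.82 to -0.384 for genes that fell. Over all tested genes the median was -0.01. In these bulk leaf libraries a change in the share of a cell type and a change in RNA per cell cannot be told apart. The median of the higher genes stayed at 0.957 when the 17 of them without a count in any NT library were set to their lower bound. A pooled call does not show a change with each construct on its own. A gene was called at a Benjamini-Hochberg adjusted p under 0.05 in edgeR's quasi-likelihood test. Without NRPE1-RNAi-NT replicate 4 the same test called 9815 genes, 5358 of them higher, and 6309 of the 6395 genes were among them.

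**Figure D1:**
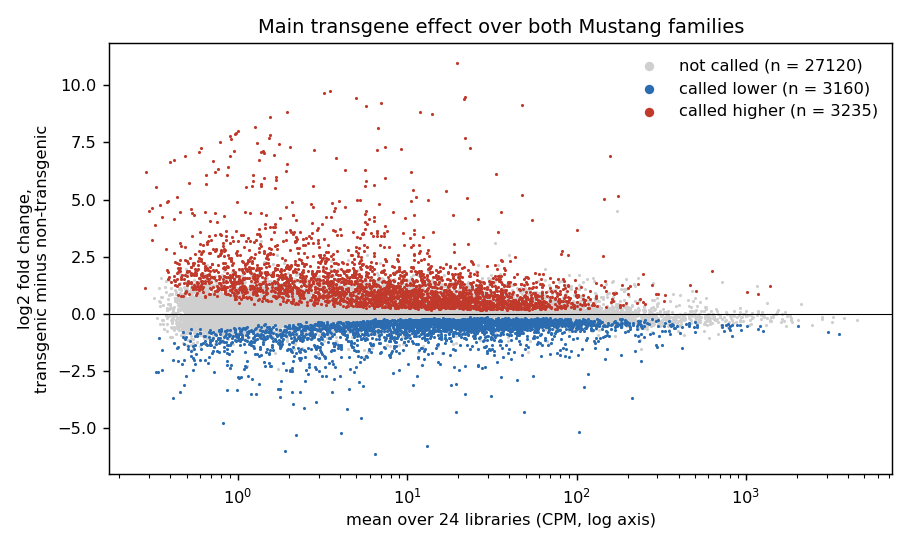
Each point is 1 of the 33515 tested genes, by its mean over 24 libraries in CPM on a log axis and its log2 fold change, transgenic minus non-transgenic. Red points are the 3235 genes called higher, blue points the 3160 called lower and grey points genes not called; the upper cloud reaches further from 0 than the lower one at low abundance.

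The larger the change, the more often it was a rise. Of the called genes, 2107 changed at least 2-fold (6.29% of tested genes), 1540 higher and 567 lower. At least 4-fold changes were found in 512 higher and 122 lower genes, at least 8-fold changes in 251 and 37, and at least 16-fold changes in 139 and 12. The share of higher genes thus went from 50.6% of all calls to 73.1%, 80.8%, 87.2% and 92.1% in that order. With libraries scaled by their total counts the shares were 65.1%, 77.9%, 83%, 88% and 92.2%, so the even balance among all calls depended on the scaling, while the excess of higher genes at 2-fold and above was present under both. Total count scaling moved the median fold change over genes by 0.07 on the log2 scale.

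Among called genes of any fold change, weakly expressed ones mostly rose and abundant ones mostly fell. Among genes with a mean under 1 CPM, 338 were higher and 134 lower, and 303 of the higher genes rose at least 2-fold. Between 1 and 10 CPM there were 1425 higher and 989 lower genes, and between 10 and 100 CPM 1401 higher and 1808 lower. Over 100 CPM, 71 genes were higher and 229 lower. The share of higher calls was 23.7% there against 71.6% in the lowest class. Among calls of at least 2-fold, higher genes outnumbered lower ones between 10 and 100 CPM too, 356 against 148. Over 100 CPM there were 20 higher and 26 lower calls of that size. The share of genes called was nearly the same in the 4 classes, from 17.9% to 19.4%. The median fold change over all tested genes, called or not, went from 0.14 in the lowest class to -0.16 in the highest on the log2 scale. A weak gene can pass the filter on low counts through the arm where it is high, in either direction. The part of this in the lowest class was not tested.

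Under total count scaling the class from 10 to 100 CPM turned to 62% higher calls, from 43.7%, while the class over 100 CPM stayed mostly lower, at 35.9% higher calls. Without NRPE1-RNAi-NT replicate 4 the shares of higher calls from the lowest to the highest class were 73.8%, 63.7%, 47.5% and 25.1%.

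**Figure D2:**
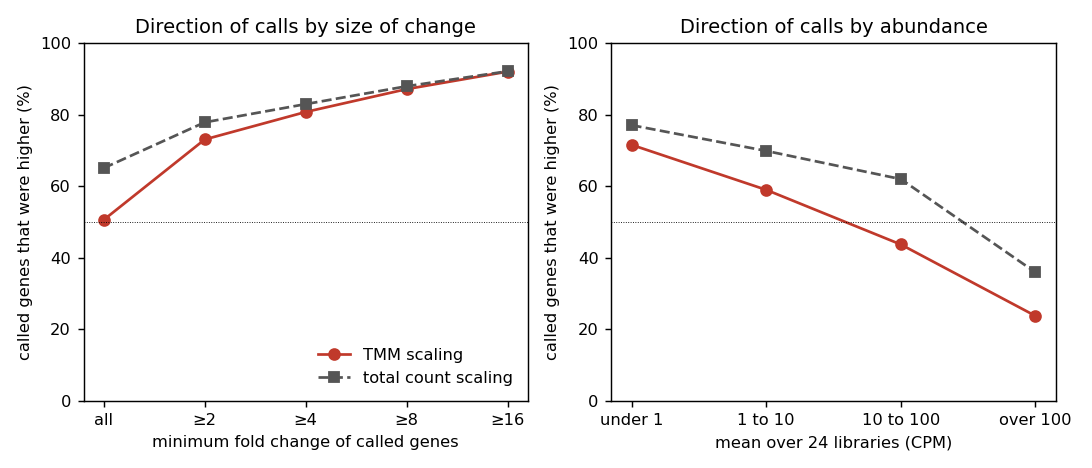
The share of called genes that were higher in transgenic leaves, in percent, by the minimum fold change (left) and by mean abundance in CPM (right), under TMM scaling (red circles) and total count scaling (grey squares). The share rises to 92.1% among changes of at least 16-fold and falls to 23.7% over 100 CPM, and the dotted line marks equal numbers of higher and lower genes.

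Transgenic leaves also expressed more genes. At a common depth of 10049997 counts, 38952 ± 421 genes had a count in T libraries against 37640 ± 597 in NT libraries (SD, n = 12), and 11 of the 12 T libraries lay above every NT library. In the NRP(D/E)2-RNAi family the T libraries ranged from 38676 to 40002 with a median of 38921, and the NT libraries from 36176 to 38227 with a median of 37754. In the NRPE1-RNAi family they ranged from 38399 to 39301 with a median of 38850, and from 37503 to 38415 with a median of 37643. The groups overlapped in neither family except for T replicate 4 of NRPE1-RNAi, at 38399, just under NT replicate 4, at 38415. The mean difference within families was 1312 genes (two-sided exact permutation test within families, p = 4.69e-06, adjusted over 5 library measures 2.34e-05; the smallest p this design allows is 2.34e-06). The share of counts taken by the 10 most abundant genes, 3.73% ± 0.944 in T and 4.15% ± 0.537 in NT libraries (SD, n = 12), did not pass the same exact permutation test (p = 0.133), nor did total counts (p = 0.321). TMM factors, which follow the make-up of a library, were higher in T libraries by 0.0492 (exact permutation p = 0.0213, adjusted 0.0354).

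Genes that were silent in one arm and on in the other were mostly on in transgenic plants. Among the 55589 identifiers, 10437 had no count in any of the 12 NT libraries, and 144 of these reached at least 0.5 CPM in at least 1 transgenic plant. Conversely, 9149 had no count in any T library, and 12 of these reached 0.5 CPM in a non-transgenic plant. Each of the 12 genes was on in a single NT plant, whereas 71 of the 144 were on in at least 2 T plants, 20 in at least 6 and 5 in all 12. These classes were chosen by silence in one arm, so the counts are set side by side without a test. Libraries held on average 16051000 ± 3420000 counts in the T arm and 14839000 ± 2300000 in the NT arm (SD, n = 12). After thinning every library to the smallest one, the counts were 175 and 16.

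Every transgenic plant took part. In NRP(D/E)2-RNAi the 6 T plants expressed 27, 20, 24, 20, 23 and 31 of the 144 genes at 0.5 CPM or more, in the order of replicates. In NRPE1-RNAi they expressed 65, 65, 15, 16, 42 and 55. Non-transgenic plants of NRP(D/E)2-RNAi expressed 0 to 2 of the 12 genes of the mirrored class, and those of NRPE1-RNAi 0 to 3. The lowest transgenic plant, at 15, thus stood above the highest non-transgenic one, at 3, and plants of NRPE1-RNAi differed more among themselves than those of NRP(D/E)2-RNAi. Totals for the T plants of NRPE1-RNAi ran from 10049997 counts in replicate 2, with 65 such genes, to 21763621 in replicate 4, with 16, and the part of depth in these numbers was not tested.

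Of the 144 genes, 39 were on in plants of both families, 17 in NRP(D/E)2-RNAi only and 88 in NRPE1-RNAi only. Among those restricted to a single plant, 62 belonged to NRPE1-RNAi and 11 to NRP(D/E)2-RNAi. Most were weak: the median of their highest value was 1.19 CPM, 18 of the 144 reached 5 CPM, and the highest value was 27.1 CPM. The filter on low counts passed 17 of the 144, which it could do only through their T libraries.

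**Figure D3:**
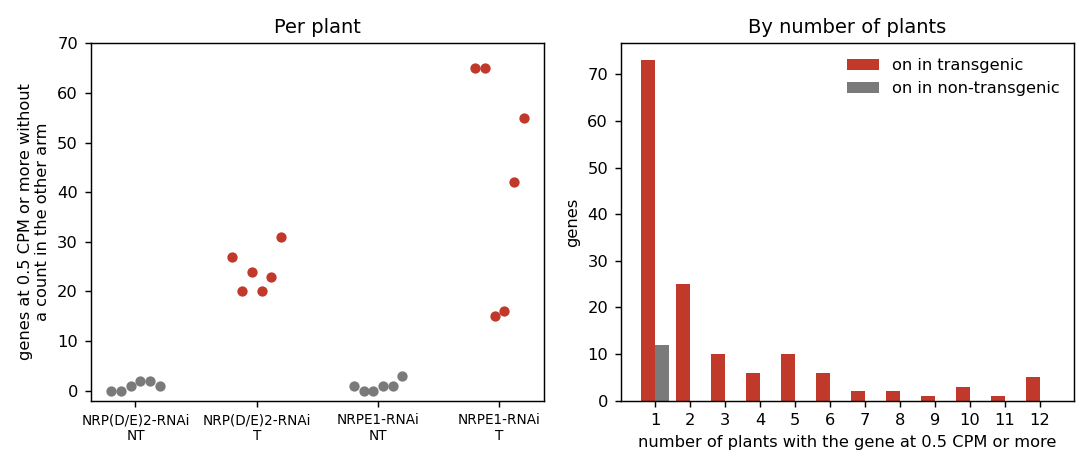
Left, for each plant, the number of genes at 0.5 CPM or more that had no count in the 12 libraries of the other arm; right, the number of such genes by how many plants expressed them. Transgenic plants (red) have 15 to 65 such genes and non-transgenic plants (grey) 0 to 3, and the 12 genes of the non-transgenic arm each occur in 1 plant.

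A further class was on in all 12 transgenic plants but allowed some counts in NT libraries. Of its 28 genes, 5 had no count in any NT library. This class held genes with a mean under 0.1 CPM in the NT libraries of each family and at least 0.5 CPM in every T library. By the converse rule 1 gene was off in all transgenic plants, against the 28 genes that were on. The mean of these 28 genes over T libraries ran from 0.977 to 43.9 CPM with a median of 3.18, and 9 of them reached 5 CPM. They lay on 15 chromosomes, with at most 4 on one. By mean level, 8 of the 28 were higher in NRP(D/E)2-RNAi and the other 20 in NRPE1-RNAi, with medians of 2.03 and 4.06 CPM. Levels varied widely between transgenic plants: the ratio of the highest to the lowest T library ranged from 1.56 to 46.4 with a median of 7.19, and it was at least 10 for 9 genes.

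The named gene with the largest rise, Glyma.05G113500, had no count in any NT plant of NRP(D/E)2-RNAi and 13.3 to 140 CPM in the T plants, with a median of 43.5. In NRPE1-RNAi its NT plants had 0 to 0.158 CPM and its T plants 0.326 to 37.8 CPM with a median of 6.85. The rule for naming genes required groups without overlap in either family, and the lowest T plant of NRPE1-RNAi came close to the highest NT plant. The gene had 2 counts in the 12 NT libraries together and 8281 in the T libraries, a ratio in CPM of 3670 (95% exact interval of the counts, 1010 to 30300). Its adjusted p in edgeR was 5.22e-09. The interval covers counting error only and not the spread between plants, whose values in T libraries averaged 39.4 ± 46.9 CPM (SD, n = 12).

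Not a single count of Glyma.10G088100 was found in the 12 NT libraries. In the T plants it reached 2.79 to 11.6 CPM in NRP(D/E)2-RNAi, with a median of 9.37, and 2.13 to 13.5 CPM in NRPE1-RNAi, with a median of 4.98. Its level was at least 393-fold higher, against a floor of 3 counts over the 12 NT libraries (0.0172 CPM), with an edgeR adjusted p of 2.24e-07. Both families overlapped in their T values, and the gene had no count in the Jack libraries of either arm.

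The 2 named genes that fell went almost to 0 in every transgenic plant. Glyma.03G190800 stood at 16.1 to 33.9 CPM in NT plants of NRP(D/E)2-RNAi, median 31, and at 0.112 to 0.399 CPM in T plants, median 0.287. In NRPE1-RNAi it stood at 20.4 to 33.1 CPM, median 22.1, and at 0.299 to 0.925 CPM, median 0.734. Its log2 fold change was -5.79 ± 0.25 (SE, edgeR adjusted p = 4.53e-14). The residual level in T plants was lower in NRP(D/E)2-RNAi, but the difference in effect between families did not pass the test (edgeR adjusted p = 0.0971).

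Glyma.01G034200 had 9.8 to 23.7 CPM in NT plants and 0 to 0.265 CPM in T plants of NRP(D/E)2-RNAi, and 6.4 to 20.3 against 0.047 to 0.514 CPM in NRPE1-RNAi. The log2 fold change was -6.15 ± 0.407 (SE, edgeR adjusted p = 1.3e-10), and every T plant lay at least an order of magnitude under every NT plant of its family. In Jack, where neither gene passed the test, Glyma.01G034200 averaged 13.1 CPM in NT and 6.19 CPM in T plants, and Glyma.03G190800 8.97 and 8.36 CPM. By the rule that named them, all 4 genes belong to 127 higher and 72 lower genes that were called, reached 5 CPM in 1 arm and did not overlap in either family.

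**Figure D4:**
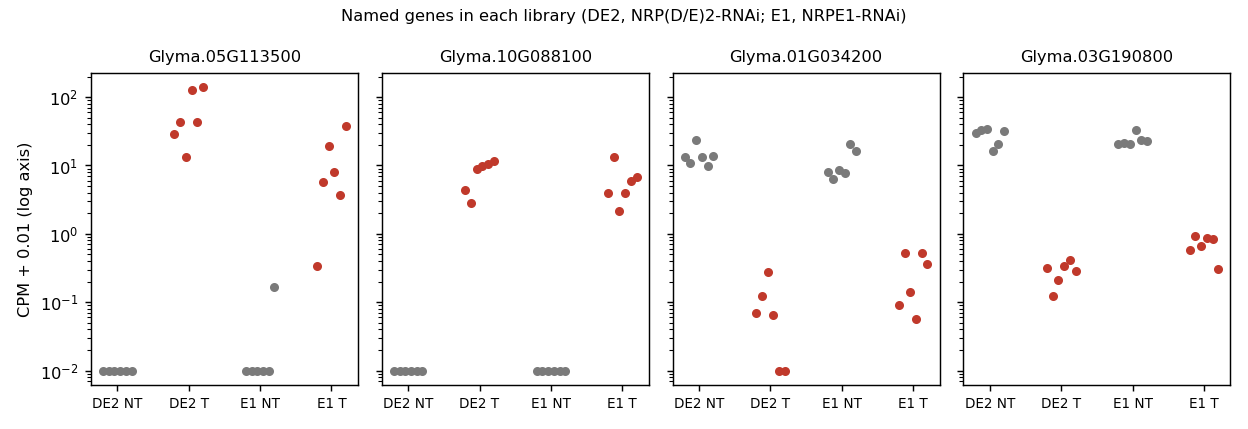
CPM plus 0.01 on a log axis for the 4 named genes in each of the 24 libraries, transgenic in red and non-transgenic in grey, by family. The rising pair goes from 0 or near 0 to between 0.326 and 140 CPM and the falling pair from 6.4 or more to under 1 CPM, without overlap in either family, as the rule for naming them required.

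Over the called genes, median effects were farther from 0 with the NRP(D/E)2 construct. For genes called higher the median effect (log2) was 1.03 with the NRP(D/E)2 construct and 0.784 with the NRPE1 construct. For genes called lower these medians were -0.613 and -0.421. These genes were called on the same libraries, so the medians are a description, and the NRPE1-RNAi values include NT replicate 4, which lay with the T libraries on the first principal component. Groups did not overlap in the same direction in both families for 325 of the tested genes (0.97%), all of them called: 228 were higher (0.68%) and 97 lower (0.289%). The direction differed between families for 8 of the 3235 higher and 13 of the 3160 lower genes, against 31.1% of all tested genes. A call in the additive model favours genes that moved the same way in both families, so this low number follows in part from the choice. Fitted on its own, NRP(D/E)2-RNAi gave 5037 calls (15.9% of those tested) and NRPE1-RNAi 618 (1.97%), from libraries that the pooled comparison also holds.

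A difference in effect between families was found for few genes. The interaction test called 67 of 33515 genes (0.2%), and the effect (T minus NT) was higher in NRPE1-RNAi for 41 of them and lower there for 26. In 37 of the 67 the families moved in opposite directions, and 39 were also called for the pooled effect, 0.61% of its calls. At an unadjusted p under 0.05 in this test there were 3516 of 33515 genes. That share is above the 0.05 that tests without any difference would give. The count was 336 with DESeq2, 146 without NRP(D/E)2-RNAi-T replicate 6, 118 without NRPE1-RNAi-NT replicate 4 and 39 without NRPE1-RNAi-NT replicate 3, so few calls do not show that the effects were equal.

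Genes called in one family alone were then read plant by plant in the other, whose libraries had no part in choosing them. For each plant the difference from the mean of the NT plants of its family was taken on the log2(CPM + 0.5) scale, with an NT plant compared with the other NT plants. The 374 genes called higher in NRPE1-RNAi had medians from 1.01 to 1.22 in the 6 T plants of NRP(D/E)2-RNAi and from -0.156 to 0.0709 in its NT plants. The 244 genes called lower had medians from -0.809 to -0.605 and from -0.108 to 0.0687. On these genes the medians of the 6 T plants of NRP(D/E)2-RNAi were close together, and no NT plant came near them. This does not make the plants alike in other respects: on the first principal component they ran from 35.5 to 118.

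In the opposite reading, the medians of NRPE1-RNAi plants were spread out. The 2734 genes called higher in NRP(D/E)2-RNAi had medians of 0.205, 0.258, 0.283, 0.557, 0.48 and 0.848 in T replicates 1 to 6. The other NT plants lay between -0.377 and 0.0924, while NT replicate 4 lay at 0.678, above every T plant except replicate 6. On the 2303 genes called lower it lay at -0.381, where the T plants ranged from -0.584 to -0.118.

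At the named genes NRPE1-RNAi-NT replicate 4 had no count of Glyma.05G113500 or Glyma.10G088100, 33.1 CPM of Glyma.03G190800 and 7.82 CPM of Glyma.01G034200. The rule that named these genes placed every NT library outside the T range, so these values do not bear on how far it resembled a transgenic plant. Without it, 29 genes were switched on in all transgenic plants rather than 28, 172 rather than 144 silent genes were on in a T plant, and the mean difference in detected genes was 1376 (exact permutation test within families, p = 2.34e-06, the smallest the full design allows). Leaving out any NT library can only keep or raise the number of silent genes on in a T plant. It was 168 without NRPE1-RNAi-NT replicate 6. The switched-on count was also 29 without NRPE1-RNAi-NT replicate 1 or replicate 2. Without NRP(D/E)2-RNAi-NT replicate 2 the difference in detected genes was 1384. The label of NRPE1-RNAi-NT replicate 4 was kept throughout, and what sets that library apart was not tested.

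No tested neighbour was called the same way for 2335 of the 3235 higher and 2387 of the 3160 lower genes. With 9.65% of tested genes called higher and 9.43% lower, most calls would stand alone even if scattered at random. Whether calls lay together more often than that was not tested. Along each chromosome, the remaining called genes formed runs of up to 12 higher genes and up to 5 lower genes. There were 295 runs of 2 genes in each direction, 67 higher and 50 lower runs of 3, and 13 and 7 of 4. Of the 9 runs of 5 or more genes, 8 were higher. The runs were picked for their calls, so the values that follow have no test. They skip identifiers that failed the filter on low counts. A gene nearly silent in NT plants can pass that filter only through its T libraries, which favours runs of higher genes.

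The longest run, 12 tested genes at ranks 1900 to 1936 of 2223 on chromosome 16, had log2 fold changes from 2.44 to 4.92. Its mean log2(CPM + 0.5) was -0.269 ± 0.497 in NT and 1.8 ± 0.431 in T plants of NRP(D/E)2-RNAi, and 0.0018 ± 0.684 and 3.12 ± 0.329 in NRPE1-RNAi (SD, n = 6). The T plants of either family lay above all their NT siblings. The gap was narrowest in NRP(D/E)2-RNAi, where the lowest T plant was at 1.00 and the highest NT plant at 0.568. On the same chromosome, 6 genes at ranks 1835 to 1871 rose with a median of 4.58 and 9 genes at ranks 1687 to 1697 with a median of 1.64. Chromosome 16 as a whole had the highest share of tested genes called higher, 187 of 1325 (14.1%), where the other chromosomes ranged from 8.47% to 11.1%, and 9.13% of its genes rose at least 2-fold against 3.52% to 5.61% elsewhere.

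A run of 10 genes on chromosome 7, at ranks 940 to 959 of 2743, rose with a median log2 fold change of 1.76. Its mean log2(CPM + 0.5) went from 0.976 ± 0.619 to 2.65 ± 0.354 in NRP(D/E)2-RNAi, where T plants lay above all NT plants, and from 1.79 ± 0.805 to 2.84 ± 0.567 in NRPE1-RNAi (SD, n = 6), where the groups overlapped. In the latter family NT replicate 4 was the highest NT plant, at 2.98, within the T range from 2.06 to 3.69. NT replicate 1, at 2.26, lay within that range too. The run from rank 1687 of chromosome 16 also overlapped in NRPE1-RNAi, where T plants ranged from 2.52 to 4.25. There NT replicates 1, 2 and 4 lay inside the T range, at 2.7, 2.92 and 3.19. In the run from rank 1900 no NT plant of NRPE1-RNAi reached the T range from 2.59 to 3.6, and NT replicate 4 stood at 0.183. In Jack, 4 of the 10 genes of the chromosome 7 run were tested and all 4 had a positive fold change, with a median of 2.23 on the log2 scale and no call.

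The longest lower run had 5 genes, at ranks 466 to 473 of 2642 on chromosome 19, with log2 fold changes from -4.16 to -0.528. Its mean log2(CPM + 0.5) fell from 6.26 ± 0.233 to 5.29 ± 0.205 in NRP(D/E)2-RNAi and from 6.87 ± 0.425 to 5.66 ± 0.448 in NRPE1-RNAi (SD, n = 6). Groups did not overlap in the former family; in the latter 1 T plant, replicate 1 at 6.53, lay inside the NT range from 6.29 to 7.59. All 5 genes were also lower in Jack T plants, with a median of -0.597 and no call.

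**Figure D5:**
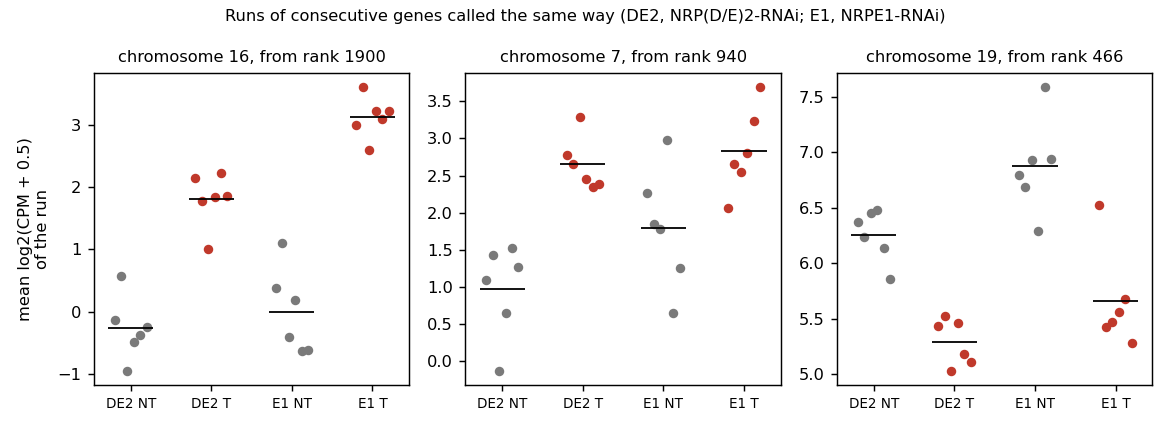
Mean log2(CPM + 0.5) of the genes of 3 runs in each library, by family and arm, with black bars at the mean of 6 libraries. In the run from rank 1900 of chromosome 16 the transgenic plants of NRPE1-RNAi (mean 3.12) stand above those of NRP(D/E)2-RNAi (1.8); the run of chromosome 7 overlaps between arms in NRPE1-RNAi, and the run of chromosome 19 is lower in transgenic plants.

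Otherwise the shares of called genes varied little along the chromosomes. With the identifiers of each chromosome split into 10 equal parts by rank, between 7.81% and 11.6% of tested genes were called higher in each part and between 7.85% and 10.6% lower. Genes under 1 CPM were called higher in 11.8% of cases in the middle of chromosomes (parts 4 to 7) and in 13.4% outside it, and genes over 100 CPM were called lower in 13.1% and 15%. The 28 switched-on genes were spread over all 10 parts, with 1 to 5 in each.

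The Jack family, with NRPD1 targeted, gave a readout in libraries that had not been used for the calls. Of the genes called higher in Mustang, 2583 passed the filter there and 2037 (78.9%) had a positive fold change, with a median of 0.36 on the log2 scale. Of those called lower, 2865 passed and 2280 (79.6%) had a negative one, with a median of -0.23. For changes of at least 8-fold in Mustang, 66 of 106 tested higher genes (62.3%) had a positive fold change in Jack. Of the lower genes of that size, 20 of 24 (83.3%) had a negative one. Among genes not called in Mustang, 52.3% were higher in Jack T plants, and among all 30539 genes tested in Jack 50.9%. Read without a filter, 2566 of all 3235 higher genes had the higher mean in T plants and 2413 of all 3160 lower genes the lower mean, 79.3% and 76.4%. In Jack itself edgeR called 5 genes (0.0164%), so these shifts are counts of direction and not calls.

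Jack T replicate 3 stood apart from its group. Of the genes silent in the 3 Jack NT plants, it expressed 255 at 0.5 CPM or more, whereas T replicates 1 and 2 expressed 12 and 19, and the NT plants expressed 1 to 2 genes of the mirrored class. Without that library 74.2% of the higher and 81.4% of the lower Mustang genes kept their direction, and 46.9% of genes not called in Mustang were higher. For Mustang changes of at least 8-fold the shares that kept their direction were then 78.6% of higher and 79.2% of lower genes. Of the 144 genes silent in Mustang NT plants, 81 had no count in the Jack NT plants either, and 33 of those had a count in a Jack T plant, 3 of them at 0.5 CPM or more; 6 of the 144 had counts in Jack NT plants only. Among the 28 switched-on genes, 20 had the higher mean in Jack T plants, 3 the lower mean and 5 no count, and 1 had under 0.1 CPM in Jack NT plants on average and at least 0.5 CPM in all 3 T plants.

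Transgenic siblings varied about as much among themselves as non-transgenic ones. Over all tested genes the median standard deviation of log2 CPM within a group was 0.311 in T against 0.356 in NT plants of NRP(D/E)2-RNAi and 0.34 against 0.384 in NRPE1-RNAi. For genes called higher by at least 2-fold the values were 0.66 against 0.767 and 0.798 against 0.866, and for genes called lower by at least 2-fold 0.563 against 0.56 and 0.652 against 0.795. Genes with large changes thus had a larger standard deviation between sibling plants than tested genes as a whole, in both arms. Many of them were weak. Of the 1540 higher genes, 303 had a mean under 1 CPM and 861 between 1 and 10 CPM, and of the 567 lower genes 95 and 298. Low counts carry more counting noise, and the part of abundance in these values was not tested.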

How the data were processed

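Total RNA was extracted from mature leaves, poly(A) RNA was selected and libraries were read on an Illumina HiSeq, as the labels' protocols state. FastQC 0.11.5, STAR 2.5.3a and edgeR are named in the submitters' processing notes. The build, annotation, counter and strandedness are not given in the sources used here, so copies and overlapping or antisense genes may share reads. The authors deposited raw read counts per gene for each library. From these, edgeR 4.0.16 in R 4.3.3 tested T against NT with family as block (filterByExpr, TMM, quasi-likelihood test, Benjamini-Hochberg over all genes tested). Standard errors derive from the F statistic. CPM use TMM over the 24 libraries. DESeq2 1.42.0, limma 3.58.1 voom, other filters and scalings, a replicate block and leaving out each library were alternatives.

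Named genes were called, reached 5 CPM in 1 arm and overlapped in neither family, ordered by fold change; without gene names the first 2 each way are given, and the lists of families could not be used. Samples, comparisons and rules were chosen with earlier results of these data known. The 60 pairs of libraries within groups differed by more than sampling noise (chi-square per degree of freedom at least 8.02). Scripts were tested on simulated data. Figures used matplotlib 3.10.9.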

Additional observations from a re-analysis of the deposited data

Results flagged for a closer look

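Of 58 groups of libraries listed for a search for a single library far from the others, 8 had one. The 58 include the Jack groups, too small for the search, and groups without any count of a named gene, where no library can stand apart. Chance gives about 1 in 20 for a group that can be examined, so 8 of 58 cannot be set directly against that rate. Genes detected stood apart in NRP(D/E)2-RNAi-T replicate 3, at 40002, and in NRPE1-RNAi-NT replicate 4, at 38415. NRPE1-RNAi-NT replicate 6 stood apart with 3 genes on that were silent in the transgenic arm, and with 0.158 CPM of Glyma.05G113500, where its 5 siblings had none. Glyma.01G034200 stood apart in NRP(D/E)2-RNAi-NT replicate 3, at 23.7 CPM, and Glyma.03G190800 in NRPE1-RNAi-NT replicate 4, at 33.1 CPM. For the run from rank 1900 of chromosome 16, NRP(D/E)2-RNAi-T replicate 3 was low, at 1 on the log2(CPM + 0.5) scale, and for the run of chromosome 19 NRPE1-RNAi-T replicate 1 was high, at 6.53. The effect differed between the families in 67 genes by the interaction test of edgeR.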

How the results depend on the processing

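The number of genes called stayed within 1.5 times under total count scaling (6098), DESeq2 (8096), limma voom (6711), no filter (6744), a filter of 1 CPM in 6 libraries (6170), the mean of both effects in an interaction model (6723) and all 30 libraries in 1 model (7094). Leaving out 1 library gave 5010 to 9815 calls, 2613 to 5358 higher and 2397 to 4457 lower; 9815 and 5358 came without NRPE1-RNAi-NT replicate 4, and the cause was not tested. The replicate block gave 4781 calls, 2512 higher and 2269 lower. Whether replicate numbers pair plants was not tested. Same-numbered plants correlated between -0.42 and 0.46, 5 of 12 pairs over 0.1, and 2 of 12 T plants correlated best with their own number. The 4 named genes kept their direction and call in all 32 alternatives each, the block included. Their adjusted p in edgeR, DESeq2 or limma was at most 0.00458. They were chosen from the same libraries as called genes with large changes and no overlap, so the rule largely set this outcome.

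Genes whose effect differed between families numbered 336 with DESeq2 and 39 to 146 with 1 library left out. Switched-on genes numbered 14 at a minimum of 1 CPM, 18 with under 0.05 CPM in NT plants and 27 to 32 with 1 library left out. The difference in detected genes was 1179 to 1384 with 1 library left out and 1008 at 5 counts. These alternatives for silent genes were chosen after seeing the data: 253 and 51 were on in a T or NT plant at 0.25 CPM, 86 and 3 at 1 CPM, and 107 to 172 and 9 to 17 with 1 library left out. Depth limits the silent class, since a gene without a count may be expressed under the floor.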
